A study of Mus musculus with 8 samples.

Results

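The 10 genes described here mark undifferentiated mouse embryonic stem cells (ESCs): Dppa2, Dppa3, Dppa4, Dppa5a, Zfp42, Utf1, Fbxo15, Tcl1, Eras and Lin28a. They were chosen by name, with earlier results of these data known, and their probes were taken by the RefSeq transcript that each is annotated to. They were represented by 13 of 55667 probes, 3 for Dppa4, 2 for Dppa2 and 1 for each other gene, and gave 10 of 22685 tested features. All 10 passed the filter on dim probes, and every one of the 13 probes was well above background on all 8 arrays.

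The study compared undifferentiated OSKH induced pluripotent stem cells (iPSCs, 4 arrays), OSK iPSCs (3 arrays, named by the series as the control group) and an ESC line, B6J-23 (1 array). All cells carry the C57BL/6J strain label, and no other genotype, treatment, age or passage is given. OSK is read here as the reprogramming factors Oct4, Sox2 and Klf4, and the added H as the oocyte linker histone H1foo, since the labels leave the letters unexplained. The labels do not tell whether replicate arrays came from different lines, clones or cultures. P-values therefore set a difference only against the spread among these samples, which may be technical variation. The single ESC array has no spread of its own, and that of the iPSC arrays stands in for it. A level is the log2 signal minus that of the array's 75th percentile, so that 0 is that percentile, and differences are in log2 units. The probe of a gene with the highest mean was used, and levels are compared between arrays, never between genes.

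The share of probes well above background was 51.4% to 59.0% per array. All 8 arrays lay on 1 slide, with OSKH 1 to 3 and ESC in row 1 and OSKH 4 and OSK 1 to 3 in row 2, so that slide row runs largely along the groups. Arrays of the same number, 1 to 3, shared a slide column in the OSKH and OSK groups. All 7 defining markers of pluripotent cells (Pou5f1, Sox2, Nanog, Klf4, Esrrb, Sall4 and Tdgf1) were measured on all 8 arrays. Pou5f1, which encodes Oct4, ran from 6.09 to 6.27 in OSKH and 6.14 to 6.25 in OSK, with ESC at 6.41. Pou5f1, Sox2 and Klf4 are also the factors that OSK is read as. Whether their probes detect introduced copies as well was not tested. OSKH 4 stood apart from the other iPSC arrays in a number of early differentiation markers, as described below.

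Pluripotent stem cells of the mouse are held in an undifferentiated state by a network of transcription factors around Oct4, Sox2 and Nanog. The genes described here lie mostly downstream of that network. They encode chromatin and DNA methylation regulators, an RNA-binding protein that blocks the let-7 microRNAs, activators of the PI3 kinase and AKT pathway and a ubiquitin ligase adaptor. Some of them, Zfp42 and Dppa3 among them, are known to vary between single cells of an ESC culture, being high in the naive state and low in cells that approach differentiation.

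For 5 of the 10 genes (Lin28a, Utf1, Zfp42, Tcl1 and Eras) the RefSeq promoter table held an entry (build GRCm38.p6). The 250 bases before the transcription start are shown for Zfp42 and Tcl1, whose levels ran together across the arrays (Pearson r = 0.79). They are also shown for Lin28a, which ran opposite to Zfp42 (r = -0.67) and less so to Tcl1 (r = -0.42). Capitals mark matches, on either strand, to a POU octamer (ATGCAAAT), a KLF motif (GGGTGTGG), a GC box (GGGCGG) and a STAT motif (TTCNNNGAA).
Zfp42, chr8:43307010-43307259, minus strand: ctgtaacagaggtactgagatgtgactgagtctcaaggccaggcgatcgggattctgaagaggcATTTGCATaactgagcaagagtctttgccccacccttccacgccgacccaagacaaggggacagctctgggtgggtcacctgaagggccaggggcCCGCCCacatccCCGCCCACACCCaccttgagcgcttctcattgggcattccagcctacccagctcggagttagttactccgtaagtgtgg
Tcl1, chr12:105222738-105222987, minus strand: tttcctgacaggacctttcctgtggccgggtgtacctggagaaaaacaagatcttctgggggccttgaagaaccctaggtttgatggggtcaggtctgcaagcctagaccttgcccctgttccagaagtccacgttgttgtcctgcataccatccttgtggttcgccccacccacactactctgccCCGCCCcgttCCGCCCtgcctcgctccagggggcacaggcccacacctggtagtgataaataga
Lin28a, chr4:134018817-134019066, minus strand: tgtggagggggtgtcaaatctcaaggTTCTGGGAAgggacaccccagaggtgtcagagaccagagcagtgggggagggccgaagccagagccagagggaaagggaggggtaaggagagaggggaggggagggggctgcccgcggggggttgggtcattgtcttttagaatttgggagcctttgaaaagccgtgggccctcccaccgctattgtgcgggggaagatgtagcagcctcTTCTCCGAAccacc
The Zfp42 stretch held 1 octamer, 1 KLF motif and 2 GC boxes, the second of which overlaps the KLF motif by 2 bases. The Tcl1 stretch held 2 GC boxes and the Lin28a stretch 2 STAT motifs. GC boxes were also found for Utf1 and Eras, which are not shown. Their levels ran less closely with Zfp42 (r = 0.33 and 0.23). Of 32851 promoter entries of the same length, 1.6% held the octamer, 3.2% the KLF motif, 32.7% a GC box and 7.02% the STAT motif. A match describes these letters and does not show that a factor binds there.

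Tcl1, Dppa3, Fbxo15 and Zfp42 spanned the widest ranges of the 10 genes, and for Tcl1, Fbxo15 and Zfp42 the range within each iPSC group was wider than the difference between the group means. Zfp42 (also called Rex1), a zinc finger protein related to YY1 and a marker of the naive state, was at 2.76, 2.04, 1.85 and 2.09 on OSKH 1 to 4, at 2.52, 2.24 and 1.77 on OSK 1 to 3 and at 2.41 on ESC. Fbxo15, an F-box adaptor of a ubiquitin ligase and a target of Oct4 and Sox2, was at 5.47, 4.23, 3.95 and 4.54 on OSKH 1 to 4, at 4.92, 4.53 and 4.03 on OSK 1 to 3 and at 4.99 on ESC. Tcl1, a coactivator of AKT kinases, was at 3.43, 1.52, 1.91 and 2.63 on OSKH 1 to 4, at 2.43, 1.72 and 1.69 on OSK 1 to 3 and at 2.59 on ESC. For each of these genes OSKH 1 was the highest of all arrays, OSK 1 was the highest of its group, and the OSKH and OSK values overlapped. In these bulk samples, fewer cells of a type and less RNA per cell cannot be told apart.

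The levels of Tcl1 spanned 3.77-fold from the lowest to the highest array, those of Fbxo15 2.87-fold and those of Zfp42 1.99-fold. Their standard deviations within groups were 0.71 (Tcl1), 0.59 (Fbxo15) and 0.39 (Zfp42), against a median of 0.20 over all features, at the 94.6th, 90.9th and 79.6th percentile of all features. Between groups they hardly separated. OSKH minus OSK was 0.0063 (SE 0.26) for Zfp42, with a 95% interval of -0.62 to 0.63, and 0.052 (SE 0.39) for Fbxo15, with an interval of -0.87 to 0.97. For Tcl1 it was 0.43 (SE 0.47), with an interval of -0.68 to 1.53. These intervals leave room for differences of more than 1.5-fold in either direction.

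Dppa3 and Dppa5a shared part of this pattern. Dppa3 (Stella), which protects maternal DNA methylation in the zygote and restrains UHRF1, was at 3.02, 2.05, 2.69 and 2.60 on OSKH 1 to 4, at 2.48, 1.96 and 1.40 on OSK 1 to 3 and at 2.72 on ESC. OSK 3 was the lowest array and OSKH 2 the only OSKH array below the highest OSK array. Dppa3 averaged 2.59 ± 0.40 in OSKH (SD, n = 4) and 1.95 ± 0.54 in OSK (SD, n = 3), a difference of 0.64 (SE 0.31) or 1.56-fold, and did not pass the limma test (adjusted p = 0.804). Dppa5a (Esg1), an RNA-binding protein with a KH domain, was at 8.80, 8.27, 8.59 and 8.50 on OSKH 1 to 4, at 8.70, 8.47 and 8.59 on OSK 1 to 3 and at 8.67 on ESC. Its whole span was 1.45-fold, and OSKH minus OSK was -0.046 (SE 0.14).

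**Figure D1:**
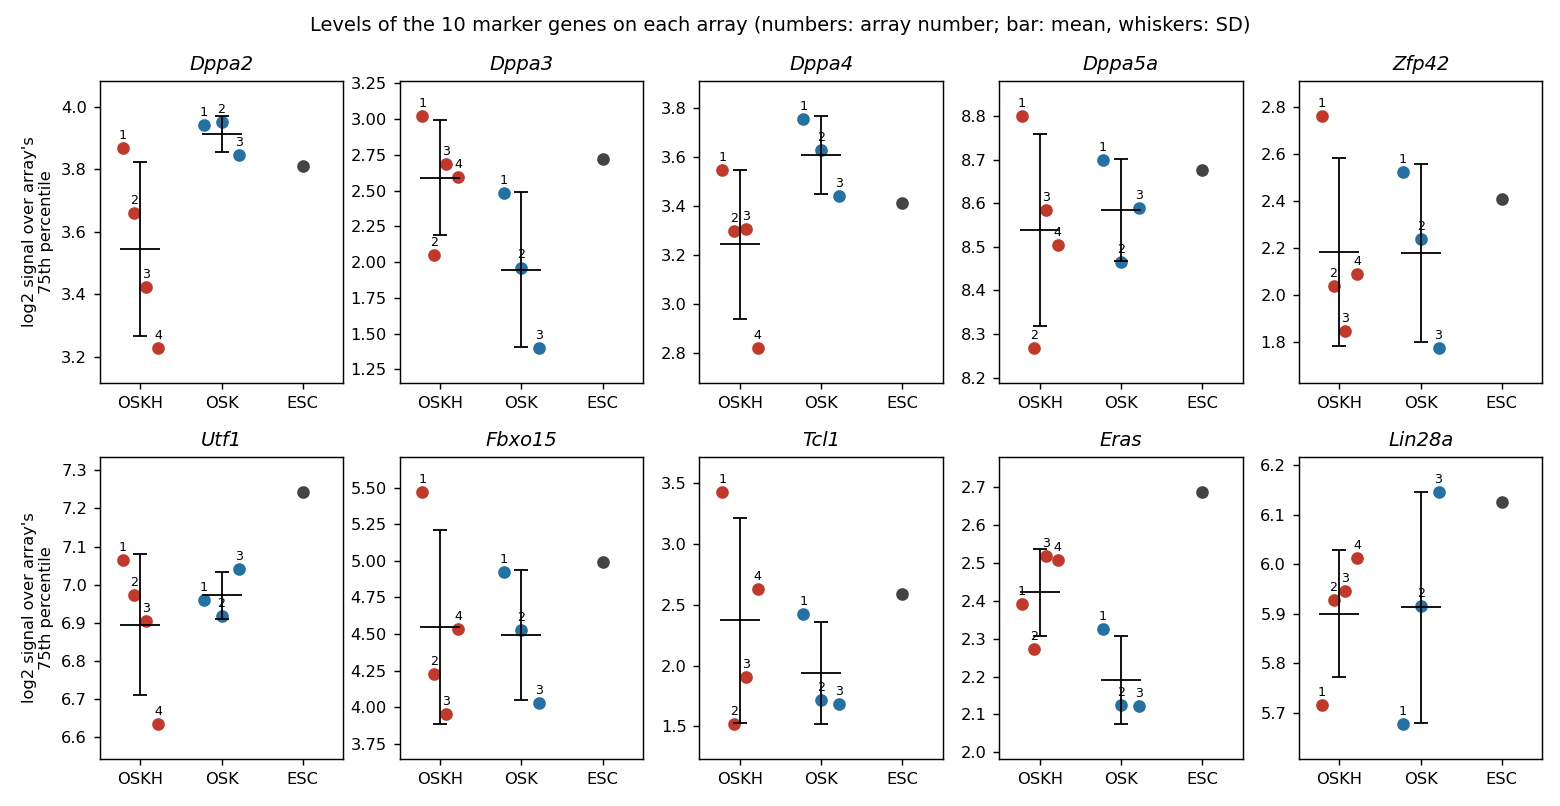
Level of each of the 10 genes on every array (y axis, log2 signal relative to the array's 75th percentile, with a scale of its own for each gene), for OSKH, OSK and ESC from left to right. Points are arrays with their numbers, bars are group means and whiskers SDs. Array 1 is the highest of its group for Zfp42, Fbxo15 and Tcl1 and the lowest for Lin28a, and OSKH 4 is the lowest array for Dppa2, Dppa4 and Utf1.

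Dppa2 and Dppa4 followed another order. Their proteins form a dimer that binds promoters of developmental genes and, in mouse ESCs, is needed to switch on genes of the 2-cell stage. Dppa2 was at 3.87, 3.66, 3.42 and 3.23 on OSKH 1 to 4, at 3.94, 3.95 and 3.85 on OSK 1 to 3 and at 3.81 on ESC. Dppa4 was at 3.55, 3.30, 3.31 and 2.82 on OSKH 1 to 4, at 3.76, 3.63 and 3.44 on OSK 1 to 3 and at 3.41 on ESC. OSKH 4 was the lowest array for both genes, and OSKH 1 alone among OSKH arrays lay above the lowest OSK array.

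Dppa2 averaged 3.54 ± 0.28 in OSKH (SD, n = 4) and 3.91 ± 0.058 in OSK (SD, n = 3). The difference of -0.37 (SE 0.16, 95% interval -0.74 to 0.0031) did not pass the limma test (adjusted p = 0.767). Dppa4 averaged 3.24 ± 0.30 in OSKH (SD, n = 4) and 3.61 ± 0.16 in OSK (SD, n = 3), a difference of -0.37 (SE 0.18, 95% interval -0.79 to 0.061) that did not pass either (limma adjusted p = 0.812). The other probes lay on the same side, with OSKH minus OSK at -0.34 and -0.38 for Dppa4 and a smaller -0.13 for Dppa2. Without OSKH 4 they were -0.26 for Dppa2 and -0.22 for Dppa4. Within slide row 2, which holds OSKH 4 and the 3 OSK arrays, they were -0.69 and -0.79 (limma adjusted p = 0.292 and 0.207).

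The 2-cell genes that depend on DPPA2 and DPPA4 were counted as a list. Of 15 such genes, 8 were tested, and 8 of 8 lay lower in OSKH than in OSK (median -1.84, against -0.014 over all features, of which 53.7% lay lower), with 0 called by limma. All 8 lay lower under each scaling and with any 1 iPSC array left out, at medians of -2.46 to -0.88. Zscan4c, a telomere regulator expressed in bursts by few ESCs, was at -2.20, 0.71, -1.11 and -1.37 on OSKH 1 to 4, at 0.32, 2.21 and -0.064 on OSK 1 to 3 and at -3.02 on ESC. OSKH 2 thus lay among the OSK arrays, and ESC was lowest. The part of Dppa2 and Dppa4 in the levels of the 2-cell genes was not tested. The median was nearest to 0 with normexp background correction (-0.88). For 3 of the 8 genes the signal was not above background on 4 or more arrays, and the other 5 had a median of -1.81. Of the 4 genes of the list with the smallest p, Usp17la (-1.34) and Zfp352 (-0.16) lay lower on every OSKH array than on any OSK array. Of all features, 4.19% did so. For Usp17la, OSK 3 (-2.585) lay close to the highest OSKH array, OSKH 3 (-2.708), while OSK 1 and 2 were at -0.57 and -1.15. Zfp352 was highest on ESC, at 3.36. The others of these 4 genes, Tcstv1 and Tmem92, were each well above background on 1 of 4 OSKH and 3 of 3 OSK arrays. They are given no difference. Some members of this list have close paralogues that 1 probe may not distinguish.

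Utf1, a chromatin-associated factor switched on by Oct4 and Sox2, was also lowest on OSKH 4. It was at 7.07, 6.97, 6.91 and 6.63 on OSKH 1 to 4, at 6.96, 6.92 and 7.04 on OSK 1 to 3 and at 7.24 on ESC, the highest array. OSKH minus OSK was -0.078 (SE 0.12), and it was 0.0087 without OSKH 4 and -0.34 within slide row 2. OSKH 4 was the lowest of all arrays for these 3 of the 10 genes and for 9 of 19 other undifferentiated-cell markers, against 19.4% of all features. Dnmt3l, a cofactor of de novo DNA methylation, was at 4.94 on OSKH 4 against 5.43 to 6.46 on OSKH 1 to 3, 5.48 to 6.26 on OSK arrays and 5.70 on ESC. L1td1, an RNA-binding protein of pluripotent cells, was at 7.09 on OSKH 4 against 7.39 to 7.48 on OSKH 1 to 3, 7.36 to 7.56 on OSK arrays and 7.65 on ESC. The rest of that list was not lowest on OSKH 4, and Nanog was highest there, at 2.28. Nanog was at 1.43 to 2.20 on OSKH 1 to 3, 1.33 to 1.56 on OSK arrays and 2.11 on ESC. Zfp42, Fbxo15, Tcl1, Dppa3, Dppa5a, Eras and Lin28a did not have their lowest level on OSKH 4.

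Many, though not all, markers of other cell types were high on OSKH 4. It was the highest of the 4 OSKH arrays for 11 of 16 early differentiation markers and 7 of 10 fibroblast and feeder markers, against 20% of all features. Of 20 early differentiation markers, 16 were tested, and their mean level was 2.30 on OSKH 4, against -0.47 to 0.17 on OSKH 1 to 3, -0.76 to 0.094 on OSK arrays and 0.75 on ESC. Their summed level, in units of the 75th percentile, ran from 291.5 to 447 in OSKH and from 248.8 to 416 in OSK. ESC was at 417, and OSKH 4, at 432, was not the highest. Most of that sum comes from the brightest probe, that of Dnmt3b, at 8.05 on OSKH 4 and 8.44 on OSKH 3. The sum therefore says little about the dimmer markers. Foxa2, a factor of endoderm and node, was at 4.03 on OSKH 4 against -2.86, -2.52 and -1.24 on OSKH 1 to 3, and T, the mesoderm factor brachyury, was at 3.71 against -2.61, -1.83 and -1.50. Pou3f1, a POU factor of the primed state, was at 4.22 on OSKH 4 and at 4.16, 5.46 and 5.41 on OSKH 1 to 3, and the neural factor Sox1 at -0.54 on OSKH 4 and at -1.03, 0.64 and -0.42 on OSKH 1 to 3. Of 16 markers, 15 were measured on OSKH 4, 13 or 14 on OSKH 1 to 3, 12 to 15 on OSK arrays and 15 on ESC. Of 13 fibroblast and feeder markers, 10 were tested and had a mean level of 1.69 on OSKH 4 and 1.62 on ESC, against -0.45 to 0.16 on OSKH 1 to 3 and -0.59 to 0.051 on OSK arrays. Their summed level ran from 86.0 to 111 in OSKH and from 98.5 to 120 in OSK, with ESC at 122. OSKH 4, at 111, was below OSK 1. Most of that sum comes from the bright probes of Fn1 and Vim, and it says little about the dimmer markers. Vim was at 4.21 on OSKH 4 and 4.61 on OSK 1. Of these markers, 10 were measured on OSKH 4, 8 or 9 on OSKH 1 to 3, 7 to 9 on OSK arrays and 9 on ESC. Col1a1, a collagen of fibroblasts, was at 1.72 on OSKH 4, at -1.38 to -1.14 on OSKH 1 to 3, at -1.86 to -1.01 on OSK arrays and at 1.34 on ESC. The matrix gene Fn1 was at 6.02 on OSKH 4, at 5.90 to 6.37 on OSKH 1 to 3, at 6.06 to 6.48 on OSK arrays and at 6.22 on ESC. The part of such cells in the levels of Dppa2, Dppa4 and Utf1 was not tested.

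Eras and Lin28a varied little. Eras, a constitutively active Ras protein of ESCs that signals to PI3 kinase, was at 2.39, 2.27, 2.52 and 2.51 on OSKH 1 to 4, at 2.33, 2.12 and 2.12 on OSK 1 to 3 and at 2.69 on ESC. OSKH 2 lay below OSK 1, the other OSKH arrays lay above all OSK arrays, and ESC was highest. Eras averaged 2.42 ± 0.11 in OSKH (SD, n = 4) and 2.19 ± 0.12 in OSK (SD, n = 3), a difference of 0.23 (SE 0.099, 95% interval -0.0040 to 0.47) with a limma adjusted p of 0.767. Its direction was the same with every single iPSC array left out, at 0.20 to 0.30, and the difference was 0.32 within slide row 2.

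Lin28a, which binds let-7 precursors and keeps them from maturing, was at 5.72, 5.93, 5.95 and 6.01 on OSKH 1 to 4, at 5.68, 5.92 and 6.15 on OSK 1 to 3 and at 6.12 on ESC. OSKH 1 and OSK 1, where Zfp42, Fbxo15 and Tcl1 were highest in their groups, had the lowest Lin28a. Its span was 1.38-fold, the smallest of the 10 genes, and OSKH minus OSK was -0.013 (SE 0.13). Its paralogue Lin28b was likewise lowest on OSKH 1 (3.62) and OSK 1 (3.83), against 4.31 to 4.39 on OSKH 2 to 4, 4.07 and 4.48 on OSK 2 and 3 and 4.26 on ESC. Of 15 LIN28A partners and let-7 target genes, all tested, 13 lay higher and 2 lower in OSKH than in OSK (median 0.11, and 0.037 without OSKH 4), with 0 called by limma. Those with the smallest p were Arid3a (0.75, SE 0.22), a DNA-binding protein, Igf2bp2 (0.23) and Igf2bp3 (0.14), RNA-binding proteins, and Dis3l2 (0.11), the nuclease that degrades tailed let-7 precursors.

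Between OSKH and OSK, 0 of 10 genes passed, at limma adjusted p from 0.767 to 0.999, and 0 of 22685 features did (0%). An unadjusted p under 0.05 was reached by 0 of 10 genes and by 1470 features (6.48%). The OSKH and OSK values overlapped for all 10 genes, while they did not overlap for 7.34% of features. Of the 10, 5 lay higher and 5 lower in OSKH, against 46.3% and 53.7% of features, with a median difference of -0.0031 against -0.014 over all features. The widest interval was that of Tcl1 and the narrowest that of Eras, so a change of 2-fold lay outside the 95% interval for Dppa2, Dppa4, Dppa5a, Zfp42, Utf1, Eras, Lin28a and Fbxo15 and inside it for Dppa3 and Tcl1.

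**Figure D2:**
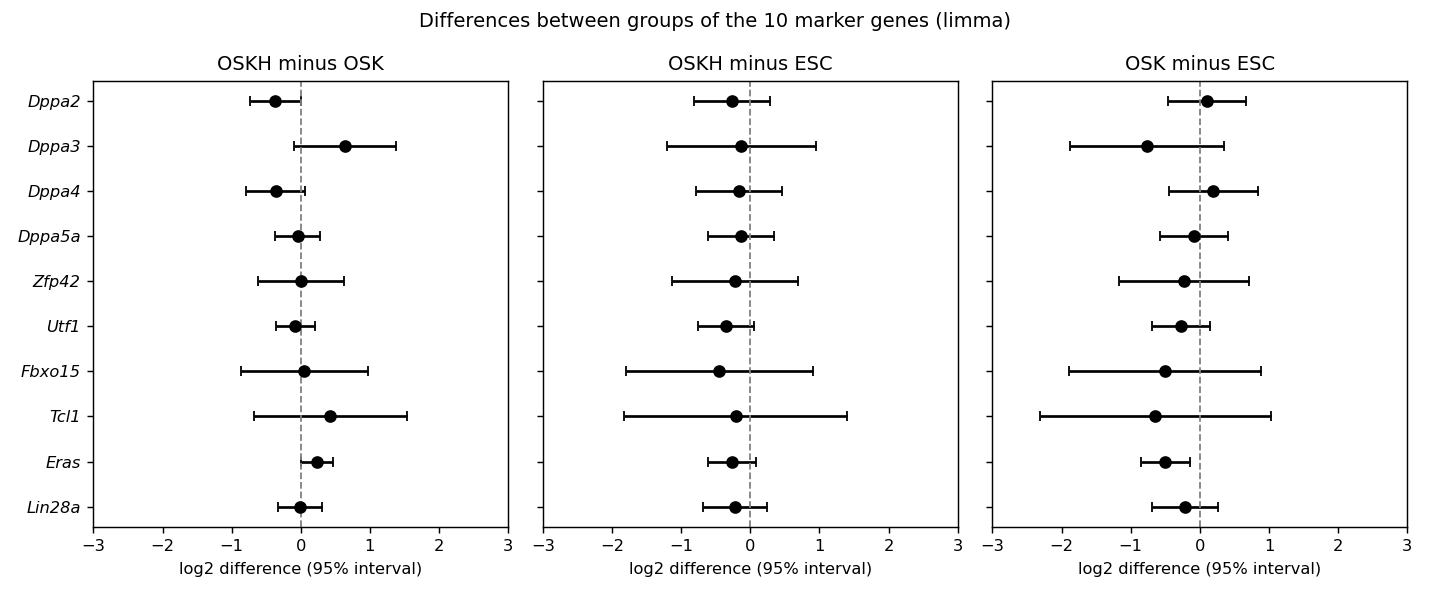
Log2 differences of the 10 genes for OSKH minus OSK, OSKH minus ESC and OSK minus ESC (x axis), with 95% intervals from limma. All intervals cross 0 except that of Eras for OSK minus ESC, which runs from -0.86 to -0.14 before adjustment for the number of features.

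All 10 genes averaged lower in OSKH than on the ESC array, with differences from -0.45 for Fbxo15 to -0.13 for Dppa3 and a median of -0.22, against a median of -0.054 over all features, of which 59.9% lay lower and 40.1% higher. Every OSKH array lay below ESC for 3 of 10 genes (Utf1, Eras and Lin28a), against 25.1% of features, and the OSKH arrays lay all on 1 side of ESC for these 3 alone, against 36.4%. The direction turned for Dppa3 (0.050) and Tcl1 (0.070) without OSKH 2. In OSK, 8 of 10 averaged lower than ESC and Dppa2 (0.10) and Dppa4 (0.20) higher, with a median of -0.25 against -0.046 over all features, of which 57.3% lay lower and 42.7% higher. Every OSK array lay below ESC for 5 of 10 genes (Dppa3, Utf1, Fbxo15, Tcl1 and Eras), against 35.6% of features. With Dppa2 and Dppa4, above ESC on every OSK array, 7 of 10 lay on 1 side, against 59.7%. By limma 0 of 10 genes passed against ESC in either group, as did 0 of 22685 features in each (0% and 0%). An unadjusted p under 0.05 was reached by 990 features (4.36%) for OSKH and 1365 (6.02%) for OSK, with 0 and 1 of the 10 genes among them. That gene was Eras, at -0.50 (SE 0.15) in OSK minus ESC, with a limma adjusted p of 0.777. The ESC array was the highest of 8 for Utf1 and Eras and the lowest for 0 of 10 genes, against 18.5% and 8.09% of all features. OSKH minus OSK, OSKH minus ESC and OSK minus ESC share arrays, so these values are not independent of each other.

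The order of arrays was then set against the transcription factors that act on these genes. In both iPSC groups array 1 was the highest of arrays 1 to 3 for 6 of the 10 genes (Dppa3, Dppa4, Dppa5a, Zfp42, Fbxo15 and Tcl1), for 14 of 19 other undifferentiated-cell markers and for 11 of 14 transcription factors, against 18.8% of all features. It was the lowest in both groups for Lin28a alone among the 10, against 23.1% of all features. This pattern was noticed in the values and then counted. Esrrb, an orphan nuclear receptor of the naive network, was at 6.86, 4.64, 5.06 and 5.46 on OSKH 1 to 4, at 5.76, 5.09 and 4.95 on OSK 1 to 3 and at 5.97 on ESC. Klf4, a reprogramming factor and naive regulator, was at 3.69, 1.69, 2.01 and 2.63 on OSKH 1 to 4, at 2.65, 2.42 and 2.12 on OSK 1 to 3 and at 3.52 on ESC. Tbx3, a T-box factor of the naive state, was at 3.95, 0.57, 1.34 and 2.36 on OSKH 1 to 4, at 1.84, 1.64 and 1.26 on OSK 1 to 3 and at 2.04 on ESC. Pou5f1 and Sall4, by contrast, spanned no more than 0.32 log2 units over all arrays. Sall4 is still counted among the 11, by small differences (4.224 on OSK 1, 4.192 and 4.21 on OSK 2 and 3).

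A fit to arrays 1 to 3 of both groups, with group and array number as terms, was added after these values were seen. It uses the arrays on which the pattern was noticed, so it is no independent test of that pattern. Relative to number 1, Zfp42 lay at -0.51 on number 2 and -0.83 on number 3 (limma F-test, adjusted p = 0.307). Fbxo15 lay at -0.82 and -1.21 (adjusted p = 0.312) and Tcl1 at -1.31 and -1.13 (adjusted p = 0.324). The limma F-test gave larger adjusted p for Dppa5a (0.371), Lin28a (0.376), Dppa4 (0.4075), Dppa3 (0.425), Dppa2 (0.491), Eras (0.676) and Utf1 (0.906). By this test 0 of 22685 features passed (0%), and 3255 (14.3%) had an unadjusted p under 0.05. What the numbers stand for is not stated, and number and slide column cannot be told apart on these 6 arrays.

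**Figure D3:**
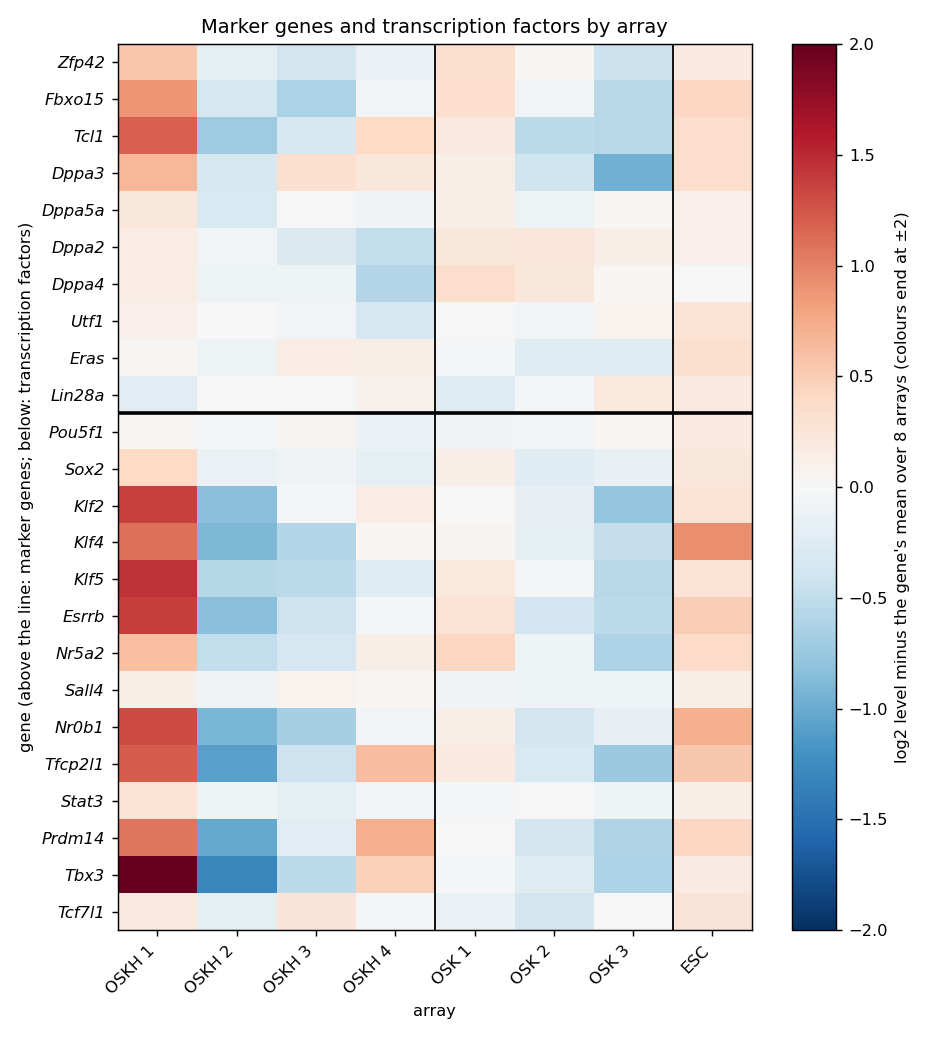
Level of each gene on each array minus the mean of the gene over 8 arrays (colour, log2 units, ending at 2 in either direction), with the 10 marker genes above the line and 14 transcription factors below it. Columns are OSKH 1 to 4, OSK 1 to 3 and ESC. The OSKH 1 column is high for Zfp42, Fbxo15 and Tcl1 and for Klf4, Esrrb and Tbx3, while Dppa2 and Dppa4 are lowest on OSKH 4.

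Over the 8 arrays, the closest pairs were Zfp42 with Fbxo15 (Pearson r = 0.98, Spearman rho = 0.93) and Dppa2 with Dppa4 (r = 0.92, rho = 0.95), and the most opposed was Zfp42 with Lin28a (r = -0.67, rho = -0.67). These values describe 8 arrays of 1 slide that share a scaling, and are not tested. Against the mean profile of the 10 genes, r was highest for Fbxo15 (0.95), Zfp42 (0.92) and Tcl1 (0.89), lower for Dppa5a (0.79) and Dppa3 (0.75), and lowest for Eras (0.47), Utf1 (0.45), Dppa2 (0.36), Dppa4 (0.36) and Lin28a (-0.48). Each gene is itself part of this mean, and genes that vary more weigh more in it, so their r is raised. By the pairs, with r from -0.67 to 0.98, the 10 genes did not vary as 1 block. Among 3728 other named genes that spanned at least 1 log2 unit, the 5 most like that mean profile over the 8 arrays were Khdc3 (r = 0.98), Gm8909 (0.98), Cct6b (0.98), Nlrp4e (0.97) and Tfpi (0.97). Khdc3, a maternal-effect gene of oocytes and ESCs, was at 3.46, 1.14, 1.51 and 1.75 on OSKH 1 to 4, at 3.04, 1.70 and 0.96 on OSK 1 to 3 and at 2.99 on ESC.

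Other genes tied to the 10 by function were counted as lists between OSKH and OSK, and 0 genes of any list passed the limma test. With slide row as a block, where OSKH 4 alone stands against OSK, 5 did (Foxa2, Gsc, Krt8, Lhx1 and Col1a1), all of them differentiation or fibroblast markers. Of 22 other undifferentiated-cell markers, 19 were tested, of which 9 lay higher and 10 lower in OSKH (median -0.054). Without OSKH 1 the counts were 3 and 16 (median -0.15), and without OSKH 4 they were 10 and 9 (median 0.0029). The smallest p belonged to Tcl1b2 (0.72, measured on 3 of 4 OSKH and 1 of 3 OSK arrays), a relative of Tcl1, Nanog (0.54), a core pluripotency factor, Gdf3 (-0.29), a TGF-beta family ligand, and Zscan10 (-0.20), a zinc finger factor of ESCs. All 14 transcription factors lay higher (median 0.14), at adjusted p from 0.846 to 0.992, led by Sall4 (0.13, SE 0.077), Tcf7l1 (0.22, SE 0.14), Klf2 (0.47, SE 0.49) and Prdm14 (0.46, SE 0.50). That direction rests on OSKH 1: without it 4 of 14 lay higher (median -0.055), and with normexp background correction 13 of 14 did. Klf2, for example, had OSKH 1 at 5.29, with OSKH 2 to 4 at 3.08, 3.90 and 4.06 and OSK 1 to 3 at 3.92, 3.76 and 3.15.

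Of 16 PI3 kinase and AKT genes downstream of ERAS and TCL1, 7 lay higher and 9 lower (median -0.030). Akt2, an AKT kinase, lay lower on every OSKH array than on any OSK array (-0.24, SE 0.071). Such a complete separation downward was found for 4.19% of all features. Pik3cd, a catalytic subunit of PI3 kinase (-0.31), and the kinase Mtor (-0.062) were also among the genes with the smallest p. Of 13 partners of DPPA3, FBXO15 and UTF1, 2 lay higher and 11 lower (median -0.063, with medians of -0.096 to -0.0080 when 1 iPSC array is left out). Cdkn2a, whose Arf product UTF1 is known to hold down, lay lower on every OSKH array (0.021 to 0.50) than on any OSK array (0.97 to 1.22), with ESC at 0.55, at -0.85 (SE 0.13) and a limma adjusted p of 0.519. Skp1 (0.12) and Rbx1 (-0.11), subunits of the ligase that FBXO15 joins, and Tet1 (-0.18), which oxidises methylated cytosine, followed.

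Of early differentiation markers, 12 of 16 lay higher in OSKH and 4 lower (median 0.77, and 0.25 without OSKH 4), with Otx2 (1.49), Fgf5 (1.76), Sox1 (-1.25) and Pax6 (measured on 1 of 4 OSKH and 2 of 3 OSK arrays) at the smallest p. Otx2 and Fgf5 mark cells leaving the naive state, and Sox1 and Pax6 the neural lineage. Of fibroblast and feeder markers, 7 of 10 lay higher (median 0.69), against 5 of 10 without OSKH 4 (median 0.011), with Vim (-0.51), Thy1 (0.69), Col3a1 (1.12, measured on 2 of 3 OSK arrays) and Postn at the smallest p. Postn was well above background on 2 of 4 OSKH arrays and 0 of 3 OSK arrays, and no fold is given for it.

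Against ESC, 0 genes of these 8 lists passed the limma test in OSKH or OSK, and with slide row as a block 5 did in OSK (Foxa2, Gsc, Lhx1, Col1a1 and Col3a1). Those 5 calls rest on OSKH 4, the only array that links OSK to row 1, and without the block Lhx1 differed by -0.20 between OSK and ESC. The transcription factors lay lower than ESC for 13 of 14 in OSKH (median -0.24) and 14 of 14 in OSK (median -0.46), and the other undifferentiated-cell markers for 15 of 19 (median -0.15) and 12 of 19 (median -0.13). The 2-cell genes lay above ESC for 7 of 8 in both groups, with medians of 1.32 in OSKH and 3.42 in OSK, which normexp background correction brought to 0.16 and 0.94. Without OSKH 2 the OSKH count was 6 of 8 and the median 0.60.

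**Figure D4:**
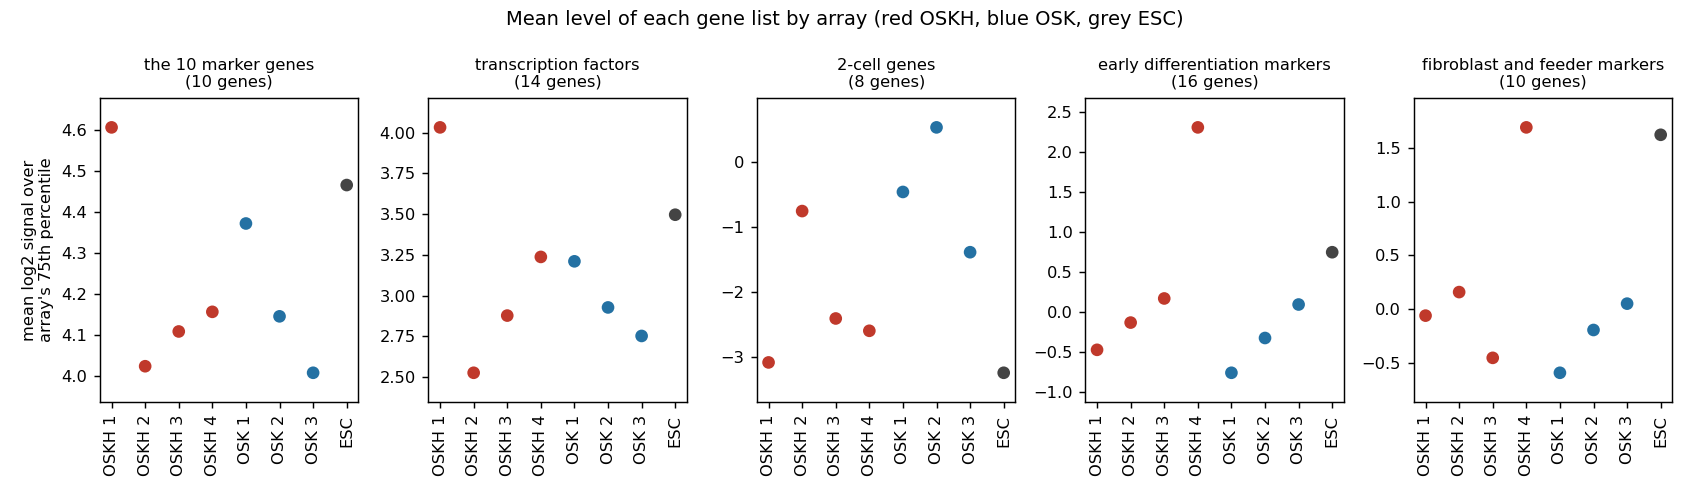
Mean level of 5 gene lists on each array (y axis, log2 signal relative to the array's 75th percentile, with its own scale in each panel), with OSKH in red, OSK in blue and ESC in grey. OSKH 1 is highest for the 10 marker genes (4.61) and the transcription factors (4.03), and OSKH 4 is highest for early differentiation markers (2.30) and, with ESC at 1.62, for fibroblast and feeder markers (1.69).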

How the data were processed

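RNA of 8 samples was hybridised to 1-colour (Cy3) Agilent mouse arrays. Spots were quantified with Agilent Feature Extraction 11.5.1.1, per the file headers and the submitters' processing notes. The deposited intensity of a spot had its background subtracted and spatial trends removed within the array, with no scaling across arrays. The flags deposited beside it (saturated, outlier, well above background) are 0 or 1. The deposited value table is on a log2 scale and differed from the log2 intensity by a constant for each array: 99.7% of probes or more fell within 0.01 of it. Its columns have medians of -3.71 to -3.60 and are not centred per gene, and the software behind them is unstated. The array annotation refers to build mm9 per the file headers, so no gene coordinates are given.

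The 3671 control spots and all spots with an outlier flag were left out, 0 spots were saturated, and spots of a probe were averaged (55681 probes, of which 14 lacked a value on some array). The log2 signal minus the 75th percentile of the array was tested for probes that 3 or more of 8 arrays measured well above background. RefSeq accessions without versions named 27650 probes through a table of assembly GRCm38.p6, and 28017 kept their identifier. The 3 groups were fitted together with lmFit and eBayes (limma 3.58.1, R 4.3.3), which had 5 residual and 1.85 prior degrees of freedom. P-values were adjusted over all features by Benjamini-Hochberg and called under 0.05. The fit was also run on simulated data, and the outcome is not given here. The number of arrays limits the precision.

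Arrays of the same number deviated together from their group means (r = 0.47, 0.26 and 0.45 for numbers 1 to 3), each OSKH array correlating best with the OSK array of its own number, so numbers were treated as pairs in a blocked fit. Alternatives were the background correction (normexp with an offset of 50, on median signals, since mean signals are not in the files), the scaling, the value table, the filter, the probe choice, slide row, array number and single arrays left out. Applying them to the gene lists was added after the data were seen.

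The 10 genes, the 8 gene lists (128 genes, 111 tested) and the tests were chosen with earlier results of these data known. The text names each of the 10 genes, the 4 genes of each list with the smallest p between OSKH and OSK, and the 5 genes most like the mean profile; lists are given against ESC as counts and medians. One gene that this rule names is not reported here. Other genes given array by array were chosen after their values were seen.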

Additional observations from a re-analysis of the deposited data

Results flagged for a closer look

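In each of 66 genes, the 4 OSKH arrays were checked for 1 array far from the other 3, by the share of the range that lies between the outermost array and its neighbour (Dixon's ratio, at its 95% critical value). None of the 10 marker genes exceeded it and 8 others did, while 16 did among all 121 genes of the lists and the 10 together. About 1 group in 20 does so by chance. The 66 include genes that were already named above because of their values, among them Gsc, Lhx1 and Col1a1. Their count of 8 is therefore not a test against that share. Outside the 66, OSKH 1 was apart for Eed (ratio 0.976, the largest of all), Hras (0.942), Pik3cb (0.8655) and Ccnd1 (0.850). There OSKH 2 was apart for Tut4 (0.884), Tet3 (0.878) and Hmga1 (0.853), and OSKH 4 for Arid3b (0.9115). The 8 among the 66 follow. OSKH 1 was apart for Klf5 (ratio 0.836), at 4.75 with OSKH 2 to 4 at 2.74, 2.77 and 3.07, and for Lin28b (0.897), at 3.62 with the others at 4.34, 4.39 and 4.31. OSKH 3 was apart for Thy1 (0.965), at 3.44 with the others at 2.48, 2.47 and 2.50. OSKH 4 was apart for Gsc (0.842), a gene of the organiser, at 2.59 with OSKH 1 to 3 at -3.78, -4.98 and -4.22, for Lhx1 (0.891), at 0.33 with the others at -4.04, -3.76 and -3.57, for Col1a1 (0.923), for Col3a1 (0.881), at 0.28 with the others at -2.95, -2.84 and -3.27, and for Dis3l2 (0.8293), at 2.73 with the others at 2.59, 2.56 and 2.56.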

How the results depend on the processing

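In 470 values of the 10 genes (30 comparisons under up to 17 alternatives), 453 kept the direction, 17 turned it and 0 passed the threshold. Leaving out single iPSC arrays turned OSKH minus OSK for Zfp42 (-0.20 to 0.18, below 0 without OSKH 1 or OSK 3), Fbxo15 (-0.26 to 0.27, likewise), Lin28a (-0.13 to 0.10), Dppa5a (-0.13 to 0.044) and Utf1 (-0.13 to 0.0087), and OSKH minus ESC for Dppa3 (-0.27 to 0.050) and Tcl1 (-0.57 to 0.070). Slide row as a block turned OSKH minus OSK for Zfp42 (-0.089) and Lin28a (0.099) and OSK minus ESC for Utf1 (0.076). The array median as scale turned Lin28a (0.0045) and quantile normalization Dppa5a in OSK minus ESC (0.023). The causes were not tested. With array number as a replicate block, which leaves out OSKH 4, 0 features were called, as without it (2324 against 1470 at an unadjusted p under 0.05), and Utf1 turned to 0.0087; no call changed. Slide row as a block called 47 features in OSKH minus OSK and 38 in OSK minus ESC, both through OSKH 4 alone, and no filter on dim probes called 11 in OSKH minus ESC and 9 in OSK minus ESC, none of them among the 10 genes. Other scalings moved the median of all features by at most 0.044. Every probe of the 10 genes was well above background, so signal over background does not limit them, while the number of arrays, above all the single ESC array, does.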
